A study of Mus musculus with 2 samples.

Results

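The 33 genes described here, of 22508 in the count table, are 26 immediate early genes and 7 heat shock genes. Disturbed cells can raise many of these transcripts early, but some, such as Hspa8, are constitutive, so a level alone does not show induction. The 33 genes were taken by name from a fixed list, and all 33 had a row in the table. The 26 comprise the AP-1 and ATF factors Fos, Fosb, Jun, Junb, Jund and Atf3, the early growth response factors Egr1, Egr2 and Egr3, and the Krüppel-like factors Klf2, Klf4 and Klf6. The nuclear receptors Nr4a1, Nr4a2 and Nr4a3, the feedback and growth regulators Ier2, Ier3, Ier5, Zfp36, Dusp1, Dusp2 and Btg2, and the cytokine-linked genes Socs3, Nfkbia, Cebpb and Cebpd complete them. The heat shock genes are Hspa1a, Hspa1b, Hspa8, Hsp90aa1, Hsph1, Dnajb1 and Dnaja1.

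Immediate early genes are switched on without new protein synthesis, through kinases that act on factors already bound at their promoters, and many of their products either drive later genes or shut the signal off again. Heat shock genes follow another route: unfolded proteins release heat shock factor 1, which binds heat shock elements and raises the chaperones that refold or hold damaged proteins. In single-cell work on liver both sets are read as signs of what enzymes, warmth and handling do to cells while the tissue is taken apart, although growth factors, cytokines and blood flow also induce several of them in the living organ.

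The study profiled liver cells of 8-week-old C57BL/6 mice by droplet-based 3' single-cell RNA sequencing, after enzymatic dissociation and a Percoll gradient. It held 1 group, wild type, as 2 libraries, WT replicate 1 and WT replicate 2, and the labels do not say whether these came from separate animals. Replicate 1 had 7362 cell barcodes with 40645060 unique molecular identifiers (UMIs, each standing for 1 captured transcript) and replicate 2 had 2341 barcodes with 11867207 UMIs. After the cell filter, 6756 and 2325 cells remained, with medians of 4722.5 and 5002 UMIs and of 3.32% and 1.55% mitochondrial UMIs.

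The libraries stand apart in what they hold. All 2325 cells kept in replicate 2 were stellate-like, that is, hepatic stellate cells by their markers, and replicate 1 held 12 such cells. The 1863 Kupffer-like cells (resident liver macrophages) and the 2303 sinusoidal endothelial-like cells (the lining of the liver's capillaries) were all from replicate 1. Clusters of these 3 classes showed 9 or 10 of the 10 markers set for their class, such as Lrat and Reln for stellate cells, Clec4f and Vsig4 for Kupffer cells, and Stab2 and Clec4g for sinusoidal endothelium. Stellate-like cells and the other classes therefore differ in library as well as in cell type, and these cannot be told apart. The labels give both libraries the same preparation and do not say whether replicate 2 was enriched for a cell type, so it may not repeat replicate 1. Kupffer-like against sinusoidal endothelial-like cells is a comparison within 1 library. 5 barcodes occurred in both libraries. No test between groups could be run with 1 group. Levels are given as CPM, the usual scaling of a gene's UMIs to the total UMIs of its class, with exact Poisson intervals of 95% in brackets that cover counting error only, not differences between animals. Intervals of shares and ratios are exact binomial ones of the same kind. A 3' UMI level is not scaled for gene length, so CPM is compared between cells and not between genes.

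Summed over the 26 genes, immediate early transcripts made up 2.50% (2.49 to 2.51) of all UMIs in stellate-like cells, 3.07% (3.06 to 3.08) in Kupffer-like cells and 1.87% (1.86 to 1.88) in sinusoidal endothelial-like cells. In the 12 stellate-like cells of replicate 1 the share was 0.879% (0.792 to 0.974) of their pooled UMIs, below rather than above that of sinusoidal endothelial-like cells. Cell by cell it ran from 0.0908% to 7.12%, with a median of 0.643%. Over the 15 classes of at least 20 cells the share ran from 0.474% in hepatocyte-like cells and 0.689% in plasmacytoid dendritic-like cells to 3.38% in vascular endothelial-like and 3.83% in cholangiocyte-like cells, which line the bile ducts. The share was thus highest in cholangiocyte-like, vascular endothelial-like and Kupffer-like cells and low in hepatocyte-like, plasmacytoid dendritic-like, B-like (0.960%) and T-like cells (1.19%). Sinusoidal endothelial-like cells lay below neutrophil-like (2.81%), portal fibroblast-like (2.41%) and monocyte-like cells (2.20%), among others. The 7 heat shock genes took a smaller and flatter share: 0.216% (0.214 to 0.219) in stellate-like, 0.227% (0.224 to 0.230) in Kupffer-like and 0.208% (0.206 to 0.211) in sinusoidal endothelial-like cells. Their lowest share was 0.0866% (0.0656 to 0.112) in 27 neutrophil-like cells and their highest 0.321% (0.314 to 0.329) in mesothelial-like cells, the covering of the liver's surface. Neutrophil-like cells, lowest for heat shock genes, carried 2.81% immediate early UMIs, and cholangiocyte-like cells, highest for immediate early genes, carried 0.243% heat shock UMIs. The 2 unnamed clusters of replicate 1 had immediate early shares of 1.14% (539 cells led by Wnt9b and Lhx6) and 2.62% (546 cells led by Rps2-ps10 and Hdac9, with a median of 1172 UMIs), and heat shock shares of 0.207% and 0.202%. By markers the first was nearest to sinusoidal endothelial and the second to Kupffer cells, with 9 markers each. The first was left unnamed for leading genes of another class. The second had few UMIs and no marker of its class among its leading genes. The shares of the 2 named classes leave these cells out.

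**Figure D1:**
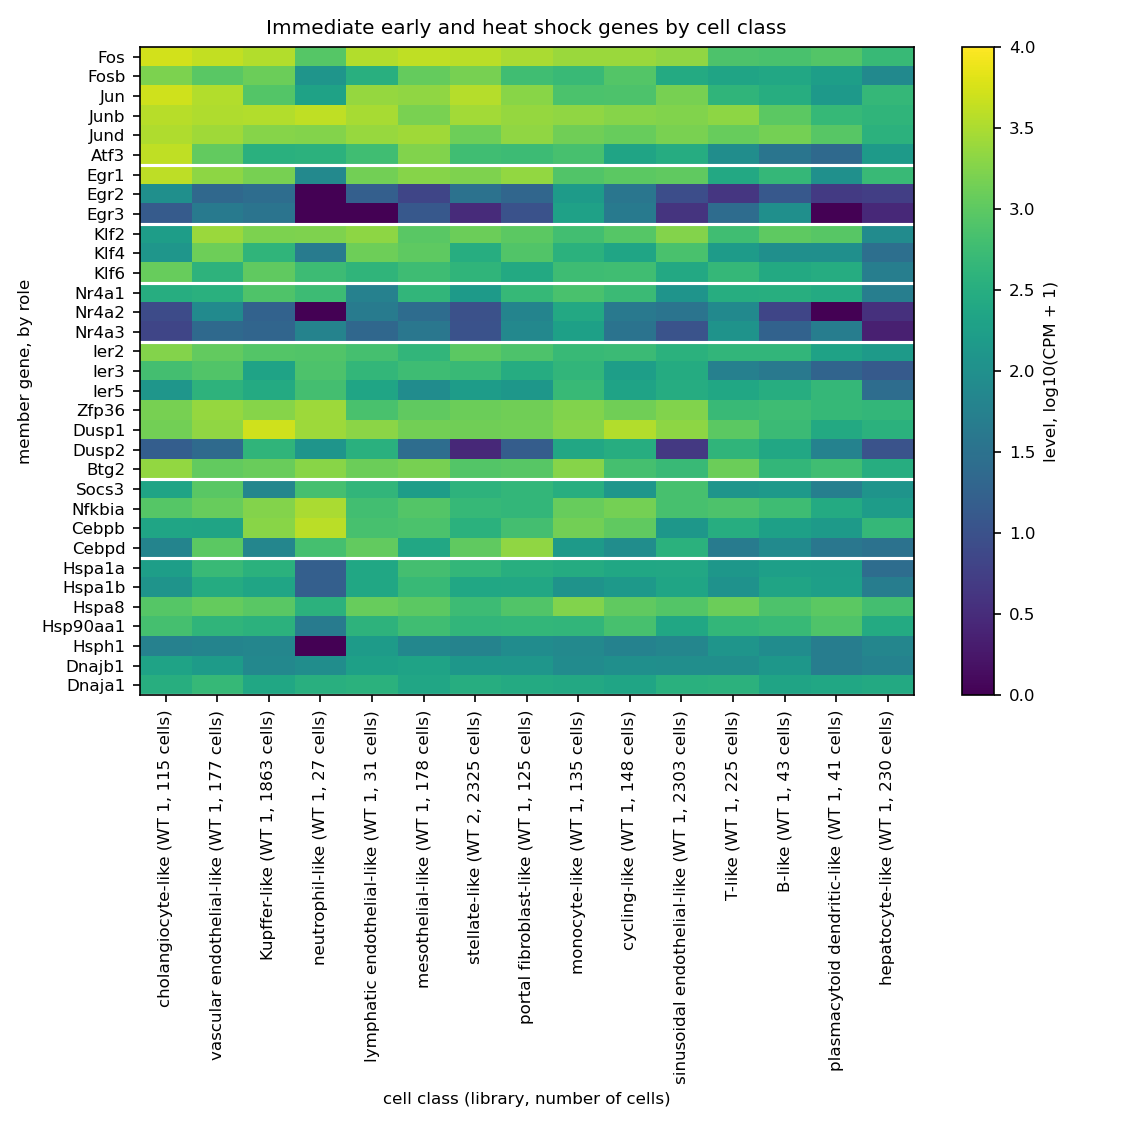
Level of each of the 33 genes (rows, grouped by role, separated by white lines) in each of 15 cell classes (columns, with library and number of cells), as log10 of CPM plus 1 by colour. Classes are ordered by their immediate early share, from cholangiocyte-like at 3.83% of UMIs on the left to hepatocyte-like at 0.474% on the right.

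By single genes, 10 of the 33 were highest in cholangiocyte-like cells, 5 each in neutrophil-like, monocyte-like and vascular endothelial-like cells, and 3 in Kupffer-like cells (Dusp1, Dusp2 and Nr4a1). For several, such as Fosb, Junb and Btg2, the intervals of the highest and the next class overlapped. None was highest in stellate-like, sinusoidal endothelial-like or hepatocyte-like cells among these 15 classes. A gene counted as higher or lower where its CPM in 1 class was 2-fold that in the other or more, given 50 UMIs or more in the pair. Of the 33 genes, 12 were higher in Kupffer-like than in sinusoidal endothelial-like cells, where 15.4% of 11661 genes were, and 3 were lower, where 24.9% were. In stellate-like against sinusoidal endothelial-like cells 6 of 33 were higher, against 17.7% of all genes, and 2 were lower, against 19.3%. In stellate-like against Kupffer-like cells 4 of 33 were higher, against 30.2% of all genes, and 8 were lower, against 18.6%. The median log2 ratio of the 33 genes was 0.53, 0.39 and -0.28 in these 3 comparisons, beside -0.31, -0.07 and 0.29 over all genes tested. The 12 genes higher in Kupffer-like cells stood well above the share over all genes. The counts for stellate-like cells lay near or below theirs, except the 8 lower than in Kupffer-like cells, which lay somewhat above. With the 12 stellate-like cells of replicate 1 in place of replicate 2, 5 of 31 genes were higher and 13 lower than in sinusoidal endothelial-like cells, against 45.9% and 11.6% of all genes. Against Kupffer-like cells 5 of 33 were then higher and 18 lower, beside 49.7% and 11.4% of all genes. A gene with 0 UMIs in a class was set to 3 counts there. In 12 cells with 41628 UMIs in all, that alone can call an unseen gene higher or keep it from being called lower. The counts with these 12 cells, and their shares over all genes, are partly set by it and give no firm baseline. In either direction 15 of 33 passed 2-fold between Kupffer-like and sinusoidal endothelial-like cells, against 40.3% of all genes, 8 of 33 between stellate-like and sinusoidal endothelial-like cells, against 37.0%, and 12 of 33 between stellate-like and Kupffer-like cells, against 48.8%. All 7 heat shock genes stayed within 2-fold in all 3 comparisons.

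The AP-1 factors bind DNA as pairs of a Fos and a Jun family protein. Fos stood at 3789 CPM (3753 to 3824) in stellate-like, 3465 CPM (3429 to 3502) in Kupffer-like and 2171 CPM (2144 to 2198) in sinusoidal endothelial-like cells, and over the 15 classes it ran from 491 CPM in hepatocyte-like to 5324 CPM in cholangiocyte-like cells. Its close relative Fosb was at 1536, 1257 and 277 CPM in the same 3 classes, 5.56-fold (5.35 to 5.77) and 4.55-fold (4.37 to 4.73) higher in stellate-like and Kupffer-like than in sinusoidal endothelial-like cells. Fosb was thus low in sinusoidal endothelial-like cells alone of the 3, while Fos differed less than 2-fold between them. Jun followed another order, with 3599 CPM (3565 to 3634) in stellate-like, 1513 CPM (1490.3 to 1535) in sinusoidal endothelial-like and 848 CPM (830.1 to 866) in Kupffer-like cells, which is 4.24-fold (4.15 to 4.35) more in stellate-like than in Kupffer-like cells. These orders rest on replicate 2: the 12 stellate-like cells of replicate 1 had 841 (586 to 1169) CPM of Fos, 432 (256 to 683) of Fosb and 865 (606 to 1197) of Jun, with Fos and Jun below sinusoidal endothelial-like cells and Jun near Kupffer-like cells. Junb was at 2835, 3435 and 1721 CPM and Jund at 1301, 1843 and 1545 CPM in stellate-like, Kupffer-like and sinusoidal endothelial-like cells. Junb in Kupffer-like cells, at 1.996-fold (1.96 to 2.03) the sinusoidal endothelial-like level, lay just under the 2-fold line. Atf3, a stress-induced factor that mostly represses, was at 599, 351 and 304 CPM. In cholangiocyte-like cells Atf3 reached 4105 CPM (4009 to 4204), above the 1738 (1685 to 1791) CPM of mesothelial-like cells, the next class, and in plasmacytoid dendritic-like cells it was at 22.2 CPM, from 6 UMIs.

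Of the early growth response factors, zinc finger proteins driven by growth factor signals, Egr1 was at 1710.3 CPM (1687 to 1734) in stellate-like, 1529.8 CPM (1506 to 1554) in Kupffer-like and 1037 CPM (1018 to 1056) in sinusoidal endothelial-like cells. The stellate-like cells of replicate 1 had 384 (219.7 to 624) CPM, below both other classes. Egr2 and Egr3 were counted far more rarely. Egr2 had 31.6, 26.3 and 7.76 CPM in these classes, 4.07-fold (3.22 to 5.19) and 3.38-fold (2.65 to 4.35) higher in stellate-like and Kupffer-like than in sinusoidal endothelial-like cells. Egr3 separated the classes differently: 33.7 (30.2 to 37.4) CPM in Kupffer-like against 3.05 (2.13 to 4.25) in sinusoidal endothelial-like and 2.13 (1.38 to 3.14) in stellate-like cells, the last from 25 UMIs. Both Egr2 and Egr3 were highest in monocyte-like cells, at 155 and 195 CPM.

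Klf2 and Klf4, Krüppel-like factors that blood flow induces in endothelium, were highest in vascular endothelial-like cells, at 2500.5 and 1331 CPM. For Klf4 the interval there overlapped that of lymphatic endothelial-like cells (1319 CPM). Among the 3 main classes Klf2 was at 1825 CPM in sinusoidal endothelial-like, 1640.4 in Kupffer-like and 1277 in stellate-like cells, within 2-fold of each other. Klf4 was at 709, 419 and 310.0 CPM in the same order and 2.29-fold (2.20 to 2.38) lower in stellate-like than in sinusoidal endothelial-like cells. Klf6 had another order: 1047 CPM (1028 to 1068) in Kupffer-like, 412 CPM (400.5 to 424) in stellate-like and 262 CPM (253 to 272) in sinusoidal endothelial-like cells, 3.99-fold (3.83 to 4.16) higher in the first than in the last.

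Nr4a1, an orphan nuclear receptor that many stimuli induce in macrophages, was at 801 CPM (784 to 819) in Kupffer-like cells, 151 (144 to 159) in stellate-like and 116 (109.7 to 122) in sinusoidal endothelial-like cells. It was 6.92-fold (6.53 to 7.34) higher in Kupffer-like than in sinusoidal endothelial-like cells and higher there than in any other class. Its relatives Nr4a2 and Nr4a3 were at low levels in the 3 classes and were highest in monocyte-like cells. Nr4a2 ran against Nr4a1, with 34.1 (30.8 to 37.7) CPM in sinusoidal endothelial-like, 17.0 (14.5 to 19.7) in Kupffer-like and 8.69 (7.08 to 10.5) in stellate-like cells. Nr4a3 was at 19.5 (16.8 to 22.4) CPM in Kupffer-like, 9.68 (7.97 to 11.7) in sinusoidal endothelial-like and 9.11 (7.47 to 11.0) in stellate-like cells. Both stood on the 2-fold line between Kupffer-like and sinusoidal endothelial-like cells, with 2.01-fold for Nr4a3 and 2.01-fold the other way for Nr4a2.

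Among the feedback genes, Dusp1, a phosphatase that switches off stress kinases, was at 5201 CPM (5156 to 5245) in Kupffer-like, 2111 CPM (2084 to 2138) in sinusoidal endothelial-like and 1335 CPM (1314 to 1356) in stellate-like cells, and Kupffer-like cells held more of it than any other class. Dusp2, a nuclear phosphatase of the same family known from immune cells, had the widest ratio between Kupffer-like cells and the other 2 classes. Its 408 CPM (396 to 421) in Kupffer-like cells did not differ beyond counting error from the 408 (367 to 452) CPM of T-like cells. Sinusoidal endothelial-like and stellate-like cells had 3.66 (2.64 to 4.95) and 1.87 (1.17 to 2.84) CPM, from 42 and 22 UMIs. In cells drawn down to 2000 UMIs, 39.3% of Kupffer-like cells held a Dusp2 UMI, against 0.727% (0.398 to 1.22) of sinusoidal endothelial-like and 0.351% (0.152 to 0.690) of stellate-like cells, at median depths of 4756, 4722 and 5002 UMIs before drawing. The latter 2 shares overlap in their intervals, and stellate-like cells had the lowest share of the 15 classes. The part of free RNA in these low shares was not tested.

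Ier2, a short-lived nuclear protein, was at 988 CPM in stellate-like, 861 in Kupffer-like and 359 in sinusoidal endothelial-like cells, and both of the former were over 2-fold above the last (2.75-fold and 2.40-fold). Ier3, a regulator of cell survival, was at 507, 211 and 292 CPM in that order of classes, 2.40-fold (2.29 to 2.53) higher in stellate-like than in Kupffer-like cells. In the replicate 1 stellate-like cells Ier2 was at 312 (166 to 534) CPM and Ier3 at 96.1 (26.2 to 246) CPM, neither of them above the other classes. Ier5, at 164, 279 and 299.9 CPM, stayed within 2-fold. Zfp36, which destabilises cytokine messages, was likewise within 2-fold, at 1259, 1897 and 1728 CPM. Btg2, an antiproliferative protein, was at 846, 1232 and 521 CPM and 2.36-fold (2.29 to 2.44) higher in Kupffer-like than in sinusoidal endothelial-like cells.

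Among the cytokine-linked genes, Cebpb, a factor of the macrophage and acute phase programmes, was at 1970.0 CPM (1943 to 1998) in Kupffer-like, 355 (344 to 366) in stellate-like and 131 (124 to 138) in sinusoidal endothelial-like cells, the lowest of the 15 classes. Its relative Cebpd was at 1066 CPM (1047 to 1084) in stellate-like, 364 (353 to 375) in sinusoidal endothelial-like and 67.5 (62.5 to 72.8) in Kupffer-like cells. So Cebpb was 15.05-fold (14.3 to 15.9) higher in Kupffer-like than in sinusoidal endothelial-like cells, while Cebpd was 5.39-fold (4.97 to 5.85) lower, and Cebpd was 15.8-fold (14.6 to 17.1) higher in stellate-like than in Kupffer-like cells. Socs3, which curbs signalling from the interleukin 6 receptor family, was at 693 (677 to 708) CPM in sinusoidal endothelial-like, 389 (378 to 401) in stellate-like and 67.3 (62.3 to 72.6) in Kupffer-like cells. Nfkbia, the inhibitor that NF-kappaB itself induces, was at 1798 CPM in Kupffer-like, 678 in sinusoidal endothelial-like and 481 in stellate-like cells. Its 2.65-fold (2.58 to 2.72) difference within replicate 1 put it with Cebpb rather than with Socs3 and Cebpd.

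The heat shock genes differed less than 2-fold across the 3 classes. Hspa8, the constitutive HSC70 chaperone, was at 936 CPM (917 to 955) in Kupffer-like, 863 CPM (846 to 880.2) in sinusoidal endothelial-like and 542 CPM (529 to 556) in stellate-like cells. Hspa1a, the inducible HSP70, was at 443 (431 to 455) CPM in stellate-like, 362 (351 to 374) in Kupffer-like and 250.3 (241 to 259.6) in sinusoidal endothelial-like cells. Hspa1b, its near-identical neighbour, was at 240.1 (231 to 249), 222 (213 to 232) and 223 (215 to 232) CPM. Hsp90aa1, the inducible HSP90, was at 428, 373 and 238 CPM, and Hsph1, an HSP110 that recycles HSP70, at 61.3, 68.0 and 68.7 CPM in stellate-like, Kupffer-like and sinusoidal endothelial-like cells. The HSP70 partners Dnajb1 and Dnaja1 were at 132, 73.3 and 95.1 CPM and at 315, 237 and 344 CPM. Outside these classes Hspa1a was highest in mesothelial-like cells, at 634 CPM (602 to 667), and Hspa8 in monocyte-like cells, at 1719 CPM, while hepatocyte-like cells had 25.6 (18.3 to 34.9) CPM of Hspa1a and neutrophil-like cells had 1 UMI of it.

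Hspa1a and Hspa1b are single-exon genes that lie side by side on chromosome 17 (GRCm38, minus strand, 34969190 to 34972156 and 34956436 to 34959238), and reads from one can be counted for the other. Over whole transcripts 49.3% and 52.3% of 90-base windows of Hspa1a and Hspa1b are shared, but in the last 500 bases, nearest to where 3' reads start, 0 of 411 windows are. Their promoters, from 250 bases before to 50 after the start site in RefSeq (GRCm38.p6), are the same at 296 of 300 bases. They are shown because both carry a heat shock element, GAANNTTC, at the same place, in capitals at bases 147 to 154. Of the 28 member genes tested in sinusoidal endothelial-like cells, their transcripts also varied most from cell to cell.
Hspa1a (chr17:34972107-34972406, minus strand): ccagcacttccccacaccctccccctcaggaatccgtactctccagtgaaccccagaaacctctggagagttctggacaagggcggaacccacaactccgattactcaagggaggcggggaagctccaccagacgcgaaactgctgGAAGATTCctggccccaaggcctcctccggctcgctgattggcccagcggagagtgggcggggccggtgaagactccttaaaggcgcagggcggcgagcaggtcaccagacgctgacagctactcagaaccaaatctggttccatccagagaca
Hspa1b (chr17:34959189-34959488, minus strand): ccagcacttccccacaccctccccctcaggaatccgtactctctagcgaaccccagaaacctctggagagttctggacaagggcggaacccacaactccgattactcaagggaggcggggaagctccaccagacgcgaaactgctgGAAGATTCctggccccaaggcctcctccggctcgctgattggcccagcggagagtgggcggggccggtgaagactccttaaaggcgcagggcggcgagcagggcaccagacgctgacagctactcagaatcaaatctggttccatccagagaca
Of the 33 genes, 27 had a promoter in the RefSeq table, 4 of them more than 1. Egr1, Egr3, Ier2, Cebpd, Hspa8 and Hsp90aa1 had none and were not searched. The heat shock element, read on both strands, was in 5 of 9 promoters of the heat shock genes (Hspa1a, Hspa1b, Hsph1 and Dnaja1) and in 1 of 26 of the immediate early genes (Jun), beside 7.86% of all 32851 promoters. Those of Hsph1 overlap and hold the same element. By genes it was in 4 of 5 and in 1 of 22, beside 2442 of 27025.

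For the immediate early genes the motifs of their known inducers were read in the same way. The serum response element (the CArG box, bound by serum response factor) was in 5 of 26 promoters, those of Egr2 and Zfp36, and in 1.63% of all promoters. Apart from that of Zfp36, these are alternative promoters of Egr2, several of which overlap and hold the same box. By genes it was in 2 of 22, beside 488 of 27025. The cyclic AMP response element, TGACGTCA, was in 2 of 26, of Btg2 and Dusp1, and in 1.79% of all. An NF-kappaB site was in 5 of 26, of Fos, Fosb, Ier3, Nfkbia and Nr4a1, and in 4.51% of all, and an AP-1 site, TGACTCA or TGAGTCA, in 0 of 26 and in 5.20% of all. A match describes letters in a window of 300 bases, and elements farther from the start site lie outside it. The promoters of Zfp36, Egr2 and Dusp1 are shown with the CArG box (Zfp36, Egr2) or the cyclic AMP response element (Dusp1) in capitals, since these genes stand for the feedback, EGR and kinase-inactivating members.
Zfp36 (chr7:28379179-28379478, minus strand): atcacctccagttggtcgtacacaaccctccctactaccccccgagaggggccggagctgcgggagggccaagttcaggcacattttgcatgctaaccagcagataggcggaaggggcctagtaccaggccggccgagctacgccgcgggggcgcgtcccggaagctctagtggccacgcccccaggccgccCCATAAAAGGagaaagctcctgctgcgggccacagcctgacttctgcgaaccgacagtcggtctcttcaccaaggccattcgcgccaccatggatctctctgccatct
Egr2 (chr10:67537619-67537918, plus strand): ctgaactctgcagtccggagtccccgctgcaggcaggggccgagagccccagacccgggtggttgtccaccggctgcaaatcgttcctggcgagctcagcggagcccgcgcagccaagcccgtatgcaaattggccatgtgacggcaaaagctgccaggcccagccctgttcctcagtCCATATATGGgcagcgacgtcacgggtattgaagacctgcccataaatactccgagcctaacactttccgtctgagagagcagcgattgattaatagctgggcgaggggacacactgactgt
Dusp1 (chr17:26508423-26508722, minus strand): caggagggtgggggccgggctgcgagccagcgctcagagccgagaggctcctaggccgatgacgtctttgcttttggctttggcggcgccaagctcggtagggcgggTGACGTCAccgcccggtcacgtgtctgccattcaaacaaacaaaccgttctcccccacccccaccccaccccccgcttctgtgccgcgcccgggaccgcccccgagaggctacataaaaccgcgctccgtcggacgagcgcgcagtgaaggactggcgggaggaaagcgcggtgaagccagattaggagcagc

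Cells of 1 class differed widely in their immediate early load. In stellate-like cells the 26 genes took a median of 2.43% of a cell's UMIs (10th to 90th percentile 0.676 to 4.25%), and in Kupffer-like cells 3.46% (0.964 to 5.15%). In sinusoidal endothelial-like cells the median was 0.795%, with a 10th percentile of 0.187% and a 90th of 3.89%. The upper ends of the 3 classes thus lay close together, and the sinusoidal endothelial-like class differed by its many cells with few immediate early UMIs. The heat shock genes had medians of 0.182%, 0.192% and 0.167%, with 90th percentiles of 0.394%, 0.385% and 0.324%.

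To compare cells at equal depth, each was drawn down at random to 2000 UMIs, which left out 45 stellate-like, 117 Kupffer-like and 378 sinusoidal endothelial-like cells with fewer. Among the 1925 sinusoidal endothelial-like cells, 34.7% (32.6 to 36.9) had under 10 immediate early UMIs and 40.5% had 40 or more. Between these, 4.99% (4.06 to 6.06) of cells had 30 to 39, fewer than the 9.04% (7.80 to 10.4) with 50 to 59, so the distribution had a low and a high hump. 5.48% of 2280 stellate-like and 4.64% of 1746 Kupffer-like cells had under 10, and 59.1% and 77.7% had 40 or more. The variance of the summed immediate early UMIs was 28.0 times their mean in sinusoidal endothelial-like, 15.7 times in stellate-like and 14.2 times in Kupffer-like cells, where counting alone gives about 1. For the summed heat shock UMIs it was 2.41, 2.24 and 2.18 times.

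**Figure D2:**
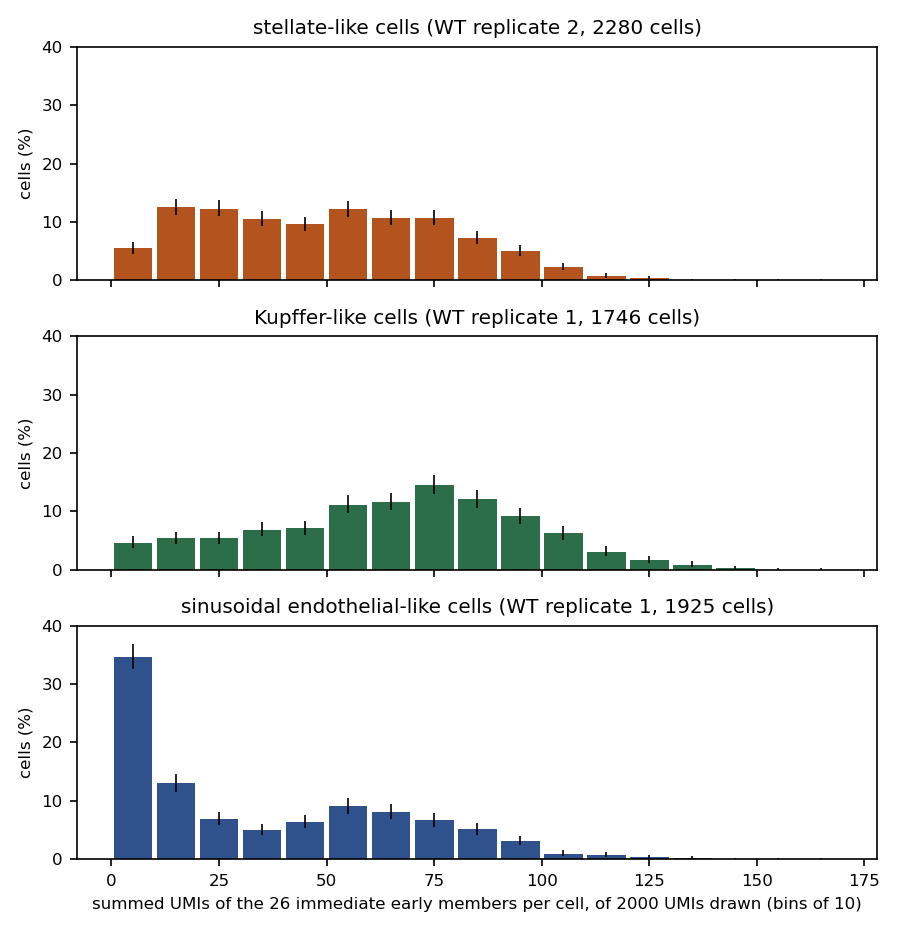
Share of cells (vertical axis, percent, with exact binomial 95% intervals as lines) by summed UMIs of the 26 immediate early genes of 2000 drawn per cell (horizontal axis, bins of 10), in stellate-like, Kupffer-like and sinusoidal endothelial-like cells. The first bin holds 34.7% of sinusoidal endothelial-like cells and 5.48% and 4.64% of the stellate-like and Kupffer-like cells.

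Single genes were compared by a spread measure, the variance less the mean, divided by the squared mean, which is near 0 where cells differ by counting alone. It was read for genes with a mean of at least 0.1 UMI in the drawn cells, which 28 of the 33 passed in stellate-like and sinusoidal endothelial-like cells and 29 in Kupffer-like cells. Egr2, Egr3, Nr4a2 and Nr4a3 stayed below that mean in all 3 classes, and Dusp2 did in stellate-like and sinusoidal endothelial-like cells. In sinusoidal endothelial-like cells 25 of 28 had a spread of at least 0.5, against 12.9% of 3618 genes, with a median of 1.08 against 0.138 over all genes. In stellate-like cells 16 of 28 did, against 10.8% of 3393 genes (medians 0.585 and 0.122), and in Kupffer-like cells 14 of 29, against 21.3% of 3222 (medians 0.455 and 0.230). The 3 below 0.5 in sinusoidal endothelial-like cells were all heat shock genes, Hspa8, Hsp90aa1 and Dnaja1.

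The spread of Fos was 0.379 in stellate-like cells, above the median over all genes of 0.122, and 0.218 in Kupffer-like cells, near the median of 0.230, with 10th, 50th and 90th percentiles of 1, 7 and 15 and of 1, 7 and 13 UMIs. In sinusoidal endothelial-like cells its spread was 1.26, 39.0% of cells had 0 UMIs, and the 90th percentile was 11. Fosb, Egr1, Zfp36 and Dusp1 were likewise most uneven in sinusoidal endothelial-like cells, with 2.18, 1.95, 1.05 and 0.903 in sinusoidal endothelial-like cells against 0.321, 0.764, 0.234 and 0.246 in Kupffer-like and 0.367, 0.560, 0.457 and 0.449 in stellate-like cells. Of these, Egr1 passed 0.5 in all 3 classes. Other genes were uneven in every class: Atf3 had 1.78, 1.11 and 2.40, and Klf4 had 1.36, 1.42 and 1.28, in stellate-like, Kupffer-like and sinusoidal endothelial-like cells. The heat shock genes varied widely among themselves. The inducible Hspa1a (1.25, 1.42 and 5.01) and Hspa1b (1.92, 3.27 and 5.77) had the highest spreads of the 28 genes tested in sinusoidal endothelial-like cells, where the tenth of cells with most Hspa1b held 76.0% of its UMIs. Such a share also rises as a gene's mean falls. In the same cells it was 44.6% for Hsp90aa1 (mean 0.488 UMI) and 83.4% for Hsph1 (mean 0.135), beside a mean of 0.403 for Hspa1b. The constitutive Hspa8 had spreads of 0.0909, 0.188 and 0.114, below the medians over all genes in each class, and the inducible Hsp90aa1 had 0.299, 0.319 and 0.241, under 0.5 in each class as well. Dnajb1, an inducible partner of HSP70, had 2.37 and 2.35 in stellate-like and Kupffer-like cells and 0.525 in sinusoidal endothelial-like cells.

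**Figure D3:**
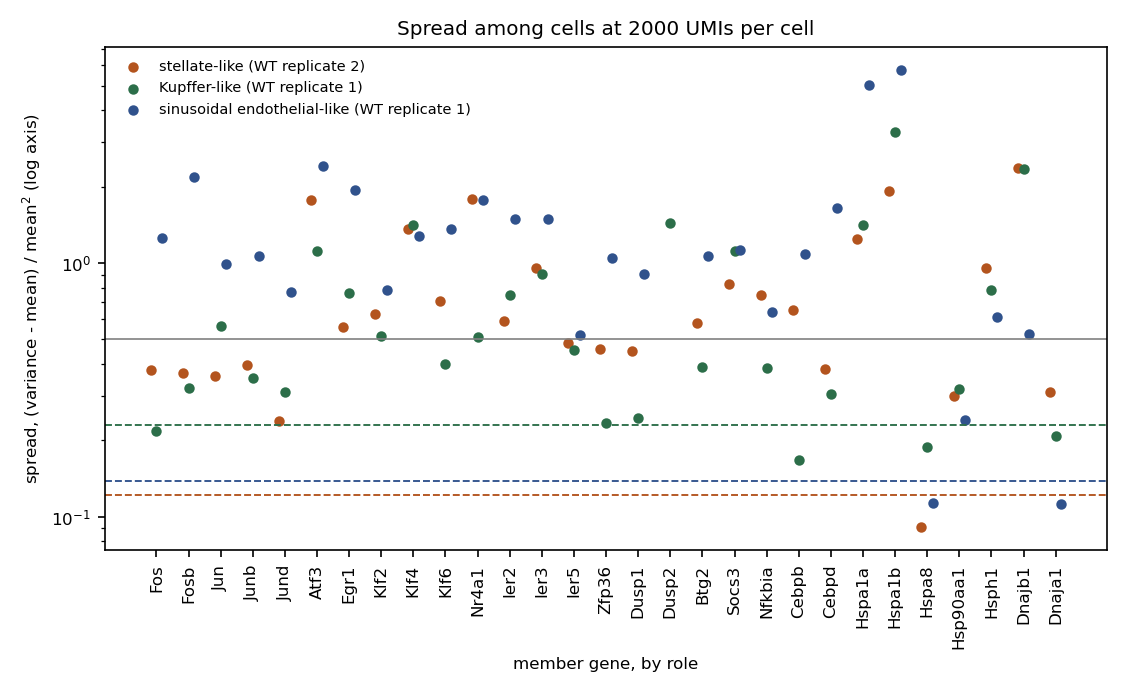
Spread among cells, the variance less the mean over the squared mean (vertical log axis), of each gene with a mean of at least 0.1 UMI in cells drawn to 2000 UMIs, by gene and role (horizontal axis). Colours are the 3 classes, dashed lines the median of all genes tested in each class, and the grey line the threshold of 0.5, with 25 of 28 sinusoidal endothelial-like, 16 of 28 stellate-like and 14 of 29 Kupffer-like points at or above it.

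Immediate early genes went together from cell to cell, and the correlations among most heat shock genes were weak. Sparse counts hold such correlations down. In the drawn stellate-like cells mean UMIs of heat shock genes ran from 0.132 (Hsph1) to 1.07 (Hspa8), beside 7.48 for Fos and 0.2996 for Nr4a1. The shares over all genes and pairs were not matched for mean UMIs. The part of sparse counts in the weak values was not tested, so these do not show that heat shock genes vary separately. The correlations below are Spearman coefficients over the drawn cells of 1 class and 1 library (2280, 1746 and 1925 cells), given as descriptions, since cells of a library share its preparation. The median over pairs of immediate early genes was 0.196 in stellate-like, 0.214 in Kupffer-like and 0.347 in sinusoidal endothelial-like cells, where 103 of 210, 122 of 231 and 162 of 210 pairs reached 0.2. Over all pairs of genes tested, 0.00441%, 0.0250% and 0.0159% did. The closest pair was Fos with Zfp36 in sinusoidal endothelial-like cells (0.817), Fos with Jun in stellate-like cells (0.675) and Junb with Dusp1 in Kupffer-like cells (0.600). Pairs of heat shock genes had medians of 0.0551, 0.0226 and 0.0365, and 1 of 21 pairs reached 0.2 in each class, Hspa1a with Hspa1b, at 0.338, 0.350 and 0.375. The part that reads counted for the wrong one of these near-identical genes have in this value was not tested.

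Set against the sum of the other immediate early genes, 20 of 21 tested genes reached 0.2 in stellate-like cells, against 1.09% of all genes tested, 19 of 22 in Kupffer-like cells, against 2.11%, and 20 of 21 in sinusoidal endothelial-like cells, against 2.02%. Fos had 0.774, 0.597 and 0.865, Egr1 0.739, 0.679 and 0.769, and Zfp36 0.606, 0.572 and 0.844 in stellate-like, Kupffer-like and sinusoidal endothelial-like cells. Some genes went closely with the sum in 1 class and loosely in another. Nfkbia had 0.597 in Kupffer-like and 0.202 in stellate-like cells, and Socs3 had 0.724 in sinusoidal endothelial-like and 0.114 in Kupffer-like cells. Jun, at 0.757 and 0.774 in stellate-like and sinusoidal endothelial-like cells, had 0.321 in Kupffer-like cells, the class with the lowest Jun level of the 3. Cebpd had 0.0391 in Kupffer-like cells. The sum of the immediate early genes and that of the heat shock genes were related at 0.208 in stellate-like, -0.0726 in Kupffer-like and 0.293 in sinusoidal endothelial-like cells. In the tenth of sinusoidal endothelial-like cells with the most immediate early UMIs (mean 93.9 of 2000) the mean of the heat shock UMIs was 4.45, and in the tenth with the fewest (2.49) it was 2.42. In Kupffer-like cells the corresponding heat shock means were 4.51 and 3.97. Of the heat shock genes, 1 of 7 reached 0.2 with the immediate early sum in stellate-like cells (Dnajb1, 0.207) and 1 of 7 in sinusoidal endothelial-like cells (Hspa8, 0.228).

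**Figure D4:**
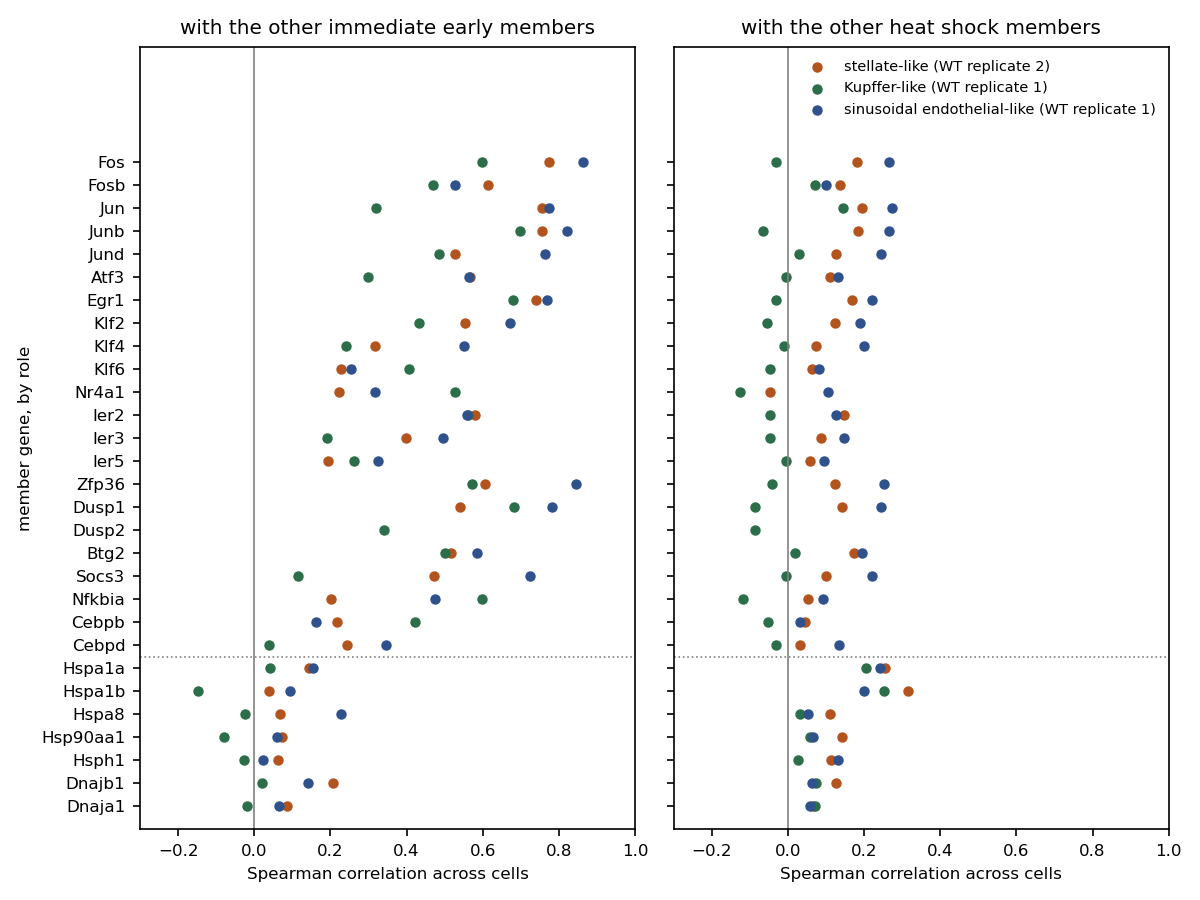
Spearman correlation across cells drawn to 2000 UMIs (horizontal axes) of each gene (rows) with the summed other immediate early genes (left) and the summed other heat shock genes (right), in stellate-like, Kupffer-like and sinusoidal endothelial-like cells. On the left Fos reaches 0.865 in sinusoidal endothelial-like cells while the heat shock genes, under the dotted line, lie between -0.147 and 0.228.

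The same variation took in other genes of the response that are no members. Of a list of 31 further immediate early genes, 4 of 15 tested reached 0.2 with the immediate early sum in stellate-like, 13 of 19 in Kupffer-like and 15 of 21 in sinusoidal endothelial-like cells. Over all genes tested, 1.09%, 2.11% and 2.02% did. Nfkbiz, a nuclear IkappaB protein, was first in each class (0.360, 0.575 and 0.619), and Ppp1r15a, which restarts translation after stress, had 0.255, 0.460 and 0.604. Of 16 inflammatory ligands and adhesion genes, 3 of 5 tested, 8 of 14 and 4 of 4 reached 0.2. They included the cytokines Il1b (0.643), Cxcl2 (0.463) and Il6 (0.416) in Kupffer-like cells, the chemokine Cxcl10 (0.631) in sinusoidal endothelial-like cells, and the chemokine Cxcl1 (0.277) in stellate-like cells. None of the tested genes of the lists of other chaperones (11 to 15 tested per class), endoplasmic reticulum chaperones (7 or 8) and upstream kinases and factors (8 to 10) reached 0.2. The part of sparse counts in this was not tested. Among genes on no list, those close to the immediate early sum included Gm26532 (0.358) and Phlda1 (0.267) in stellate-like cells. In Kupffer-like cells the closest were the surface protein Cd83 (0.581), Id3 (0.452) and Tnfaip2 (0.384), and in sinusoidal endothelial-like cells the interferon factor Irf1 (0.571), Gm12840 (0.495) and Iigp1 (0.484). With the heat shock sum, 0.0589%, 0.0621% and 0.332% of genes reached 0.2 in stellate-like, Kupffer-like and sinusoidal endothelial-like cells.

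The immediate early load was related to depth in a direction that differed by class, and to mitochondrial share negatively in each of the 3. In sinusoidal endothelial-like cells the immediate early sum of the drawn cells was related to a cell's full UMI number at 0.352 and to its mitochondrial share at -0.217. In Kupffer-like cells these were -0.258 and -0.0883, and in stellate-like cells 0.0866 and -0.168. Split into 3 equal parts by UMI number, sinusoidal endothelial-like cells carried 0.843%, 1.71% and 2.23% immediate early UMIs from shallow to deep, with median mitochondrial shares of 6.15%, 3.54% and 3.19%. Kupffer-like cells went the other way, with 3.69%, 3.30% and 2.76%. The unnamed cluster led by Rps2-ps10 and Hdac9, nearest to Kupffer cells by markers, was kept out of this class partly for its few UMIs. Its 546 cells, with a median of 1172 UMIs, carried 2.62%, below each of these parts. The direction in Kupffer-like cells therefore holds only for the class as named. Within the middle part alone, 25 of 28 genes in sinusoidal endothelial-like, 16 of 28 in stellate-like and 12 of 29 in Kupffer-like cells passed 0.5, against 17.2%, 15.1% and 22.9% of all genes tested in the same cells. The part of depth in the levels themselves was not tested.

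Clusters within a class differed in immediate early load as well. The 33 genes and the related lists were left out of the genes that formed the clusters, apart from 2 listed genes under newer symbols, and the 2 largest clusters of each class were compared, named first the one with more immediate early UMIs, so the direction of the sum is set by that naming and supports nothing. Other genes that went with the immediate early sum were not left out. Among them were Rasd1 (0.317 in sinusoidal endothelial-like cells) and Nlrp3 (0.339 in Kupffer-like cells), each a leading gene of a cluster compared below. The splits are thus not independent of the response, and the counts of members past 2-fold are descriptions, not a test. In sinusoidal endothelial-like cells 930 cells led by Rasd1 and Adamts4 carried 2.56% immediate early UMIs and 1373 led by Gm47625 and Pde2a carried 0.987%. Of the 31 genes with enough UMIs, 19 were higher by the 2-fold rule in the former, against 1.49% of all genes, and 0 were lower, against 1.27% (2.76% in either direction). Fos was at 3138 against 931 CPM, Atf3 at 452 against 113 CPM and Egr1 at 1527 against 408 CPM, which is 3.37-fold (3.27 to 3.48), 3.99-fold (3.65 to 4.38) and 3.74-fold (3.56 to 3.92). All 6 AP-1 and ATF genes were among the 19, and 0 of 7 heat shock genes was, with Hspa1a at 281 and 210.5 CPM. The cells with more immediate early UMIs were also deeper, with a median of 5925 against 3699 UMIs, and held fewer mitochondrial UMIs, 3.28% against 4.40%. The part of these differences in the result was not tested. Of the further immediate early genes 15 of 28 were higher in the Rasd1 cluster and 0 lower, with Myc at 21.6 against 3.58 CPM and Nfkbiz at 520.2 against 135 CPM, and the chemokine Cxcl10 was at 1439.8 against 329 CPM.

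In Kupffer-like cells 628 cells led by Acod1 and Nlrp3, genes of activated macrophages, carried 3.82% immediate early UMIs, 653 led by Wfdc17 and F630028O10Rik carried 2.13%, and the other cluster, of 582 cells led by Gm37651 and Kcnj10 carried 3.76%. Between the 2 largest, 10 of 33 genes were higher in the Acod1 cluster, against 1.3% of all genes. They were Junb, Nfkbia, Ier2, Dusp2 and all 6 of the EGR and NR4A genes: Egr1 was at 2314 against 766 CPM, 3.02-fold (2.90 to 3.14) higher, and Nr4a1 at 1082 against 449 CPM, 2.41-fold (2.28 to 2.55) higher. Fos, at 4016 and 2740.0 CPM, was within 2-fold. The 1 gene that was lower, against 0.636% of all genes, was Hspa1b, at 101 against 317 CPM, which is 3.14-fold (2.80 to 3.52) lower. The 11 genes past 2-fold stand against 1.93% of all genes. Hspa1a was at 274 and 442 CPM. Of the inflammatory list 13 of 15 tested genes were higher in the Acod1 cluster, among them the prostaglandin synthase Ptgs2 (7.14-fold) and the cytokine Tnf (3.94-fold). In stellate-like cells of replicate 2 the clusters differed little: 1083 cells led by Rgs4 and Ngfr carried 2.68% and 1242 led by Ptprt and Adamtsl2 carried 2.32%. Of 31 genes tested 0 were higher, against 0.93% of all genes, and 1, Nr4a2, was lower, against 1.04% (1.97% in either direction), at 4.54 against 12.6 CPM from 26 and 76 UMIs. Trib1, a pseudokinase gene of the further list, was at 55.2 against 15.3 CPM and the chemokine Ccl2 at 609.6 against 202 CPM. Median UMI numbers were 5633 against 6277 in the Kupffer-like and 5273 against 4755 in the stellate-like clusters.

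**Figure D5:**
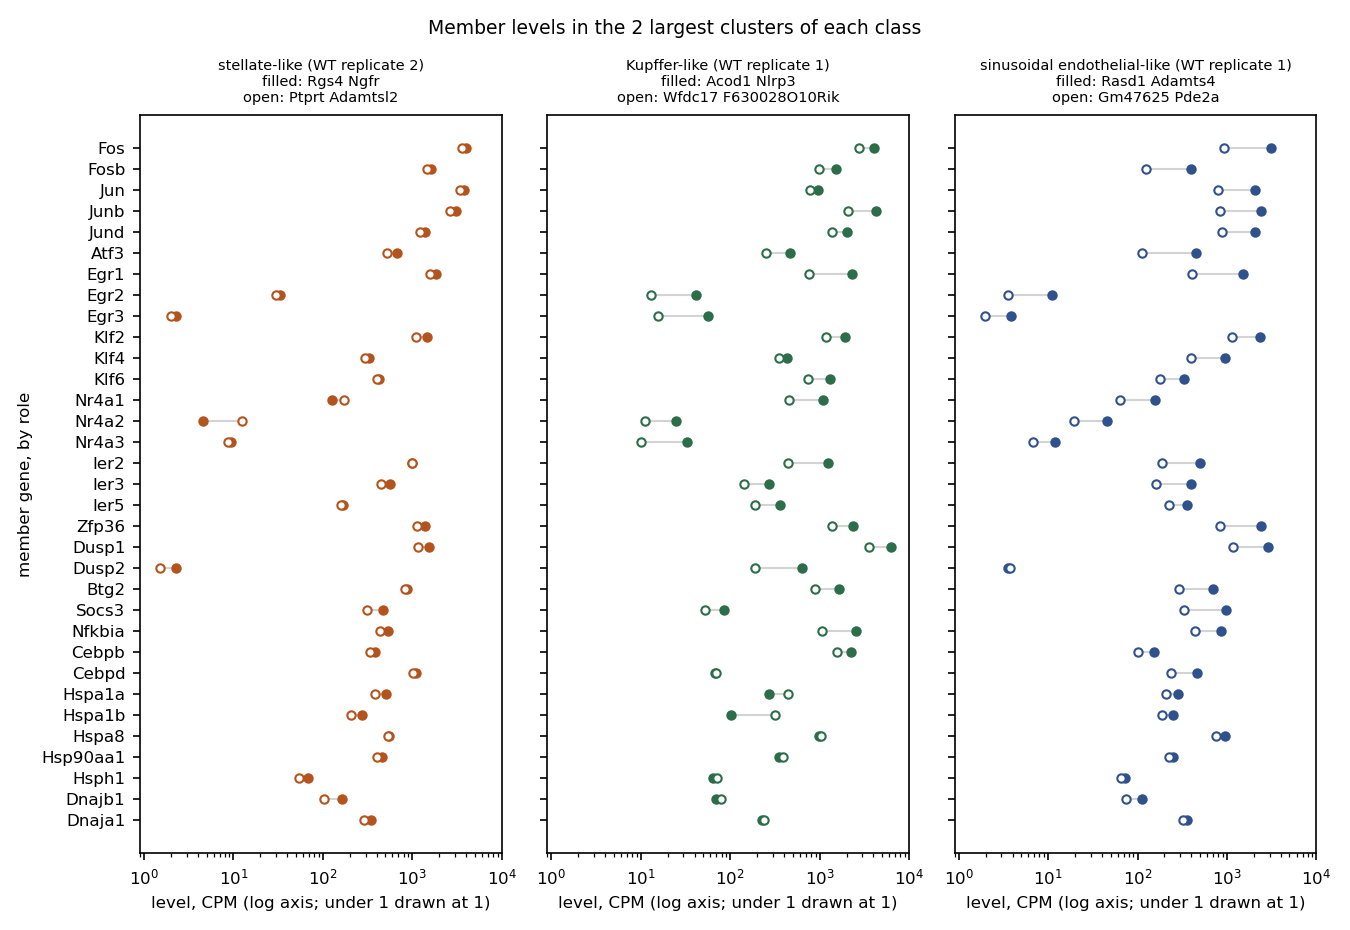
Level of each gene (rows, by role) in the 2 largest clusters of the stellate-like, Kupffer-like and sinusoidal endothelial-like classes (panels), in CPM on a log axis, with values under 1 drawn at 1. Filled points are the cluster with more immediate early UMIs and open points the other, and the gap for Fos runs from 931 to 3138 CPM in sinusoidal endothelial-like cells.

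Outside the members, the related lists were compared between classes by the same rule, and several counts lay near the share over all genes. Of the further immediate early genes, 7 of 28 tested were higher by the 2-fold rule and 7 lower in Kupffer-like than in sinusoidal endothelial-like cells. Among all genes tested 15.4% were higher and 24.9% lower in that comparison. The NF-kappaB brake Tnfaip3 was at 867 against 101 CPM and the phosphatase gene Dusp5 at 9.19 against 103 CPM. In stellate-like against sinusoidal endothelial-like cells 5 of 29 were higher and 12 lower, beside 17.7% and 19.3% of all genes. The matricellular gene Ccn1 was at 684 against 35.0 CPM and the cell cycle inhibitor Cdkn1a at 19.1 against 396 CPM. Of the chaperones that are no members, 4 of 20 were higher in stellate-like than in sinusoidal endothelial-like cells and 2 lower. The shares over all genes there were again 17.7% and 19.3%. The small heat shock gene Cryab was at 199 against 9.86 CPM, and Hspb1 at 205 in stellate-like against 6.39 CPM in Kupffer-like cells. Of the upstream kinases and factors 3 of 16 were higher and 4 lower in Kupffer-like than in sinusoidal endothelial-like cells. These counts lay near the 15.4% and 24.9% of all genes. The lower ones included the serum response factor partner Elk3, at 16.7 against 492 CPM. All 10 endoplasmic reticulum chaperones were within 2-fold in that comparison, where 40.3% of all genes were not. The inflammatory list was higher in Kupffer-like cells in 12 of 16 genes, against 15.4% of all genes, with Il1b at 3351 against 17.3 CPM.

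The 12 stellate-like cells of replicate 1 are the same class in the other library, with 41628 UMIs in all and a median of 2193 UMIs a cell. Immediate early genes took 0.879% (0.792 to 0.974) of their pooled UMIs, against 2.50% in replicate 2, and heat shock genes 0.214% (0.172 to 0.263), against 0.216%. By cell the immediate early share ran from 0.0908% to 7.12%, with a 90th percentile of 5.63%. The highest cell of replicate 2 had 6.95%. Zfp36 was at 480.4 (293 to 742) CPM, against 1259 CPM in replicate 2, and Dusp1 at 312 (166 to 534) against 1335 CPM. Cebpd, at 769 (526 to 1085) CPM beside 1066 CPM in replicate 2, was not lower beyond counting error. Hspa8, at 961 (686 to 1308) CPM, was higher than the 542 CPM of replicate 2 beyond counting error. These cells are few and shallow and rest on 1 sample a side, so the values stand beside each other without a test.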

How the data were processed

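Counts of UMIs per gene and cell barcode were analysed as the authors deposited them, in 1 table of 22508 genes. Per the submitters' processing notes, Cell Ranger 2.1.1, Seurat 3.1 and the GRCm38 build were used, and the annotation and the authors' own cell filter are not given in the sources used here. Barcodes were assigned to replicates by their endings. Cells needed 200 detected genes and no more than 20% of UMIs from mitochondrial genes, which removed 597 (8.11%) of replicate 1 and 0 of replicate 2. A doublet caller marked 9 cells (0.133%) of replicate 1, too few to have worked there, and 16 (0.683%) of replicate 2, so doublets may remain. Free RNA was not subtracted. Clustering (scanpy 1.11.5, Leiden resolution 1, 2000 variable genes, 30 principal components) left out the 33 genes and the related lists, and classes were named from fixed markers as "-like". Tests between groups were not run, since there is 1 group. Class levels are counts scaled to the class's total UMIs (CPM), and comparisons among cells use random draws of 2000 UMIs per cell. The fold and spread steps were tested on simulated data, and the correlation step was not.

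The 33 genes and the lists were chosen with earlier results of these data known. Values are given for all 33 genes. From the related lists, up to 4 genes per list past 2-fold in a comparison could be named by size of change, and outside the lists the genes correlating most with the summed members. One gene that this rule would name is not reported here. The list genes named for their correlation, Nfkbiz, Ppp1r15a, Il1b, Cxcl2, Il6, Cxcl10 and Cxcl1, were chosen after their values were seen, as were the pairs of clusters. Gene positions are from GENCODE M21 (22490 of 22508 symbols matched) and promoters from RefSeq (GRCm38.p6).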

Additional observations from a re-analysis of the deposited data

Results flagged for a closer look

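The 597 barcodes of replicate 1 that the cell filter removed, with a median of 78.2% mitochondrial UMIs and 4921 UMIs, enter no comparison but carry both gene groups. Immediate early genes made up 0.540% (0.531 to 0.548) of their UMIs and heat shock genes 0.0617% (0.0589 to 0.0646). Both lie above what 3 counts would give, which is a low bar in 2959745 UMIs and says nothing of the state of these barcodes. Of their UMIs outside mitochondrial genes the shares were 1.75% and 0.201%. There is no control sample to set these beside.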

How the results depend on the processing

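Under the alternatives run, all 27 correlations between the summed immediate early and heat shock genes stayed within 0.1. Of the counts, 86 stayed within 1.5 times and 5 did not. No gene level moved by over 1.5-fold under the 7 settings of clustering and cell choice for which levels were recomputed. The immediate early share of sinusoidal endothelial-like cells was 1.80% at clustering resolution 0.5, 1.72% at resolution 2, 1.84% under a stricter cell filter, 1.83% without the highest 5% of doublet scores, 1.74% with all variable genes, and, in alternatives chosen after seeing the data, 1.79% with Ccn1 and Ccn2 also left out and 2.0003% in cells with at most 5% mitochondrial UMIs. For Kupffer-like cells it was 3.04% at both resolutions, 3.06% without the doublet scores, 3.02% with all variable genes and 3.09% in cells of low mitochondrial share, and for stellate-like cells 2.51% without the doublet scores. The heat shock share of sinusoidal endothelial-like cells was 0.217% at low mitochondrial share. At 1.5-fold, 5 genes were lower in Kupffer-like than in sinusoidal endothelial-like cells (37.9% of all genes), and 15 were higher and 7 lower in stellate-like than in sinusoidal endothelial-like cells (26.04% and 30.1%). Without replicate 2, the stellate-like immediate early share was 0.879% of the pooled UMIs, below rather than above that of sinusoidal endothelial-like cells. Then 13 and 18 genes were lower than in sinusoidal endothelial-like and Kupffer-like cells (11.6% and 11.4% of all genes), and Fos stood at 841 and Jun at 865 CPM. Those shares over all genes are partly set by unseen genes being given 3 counts. Threshold and number of cells differ between these settings, and the cause of the changes was not tested. No paired analysis was possible because the study has 1 group. Classes under 50 cells, and genes at a few UMIs such as Egr3 and Dusp2 in stellate-like cells, are limited by depth.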
